A study of Mus musculus with 6 samples.

Results

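The Frizzled receptors were examined in RNA-Seq data of mammary tumors and normal mammary glands of BK5.ATF3 mice. The family was taken as the genes whose symbol in the deposited expression table is one of *Fzd1* to *Fzd10*, and 9 of these 10 symbols were found among the 15280 genes of the table. The expression of *Fzd9* was not analysed here. BK5.ATF3 mice carry a transgene in which the bovine cytokeratin-5 promoter, active in basal cells of stratified epithelia and in myoepithelial cells, drives the stress-response transcription factor ATF3. All animals were parous transgenic females aged 6 to 12 months, and tissue was taken when a tumor measured 1.5 cm. From each of 3 mice, 1 mammary tumor and normal mammary gland adjacent to it were sequenced, so n = 3 for each tissue. The mice are called A (libraries M11035 and T11035), B (M11640 and T11640) and C (M9232 and T9232). Both tissues carry the transgene, and the comparison is therefore between tumor and gland of transgenic animals, and non-transgenic tissue was not analysed here. *Atf3* itself stood at 4.47, 8.09 and 22.6 CPM in the glands of mice A, B and C and at 13.4, 18.3 and 19.3 CPM in their tumors. The 2 groups overlapped, and the difference did not pass the test (log2 fold change 0.80, standard error (SE) 0.49, adjusted p = 0.223, limma). Gland C was the highest library, and *Atf3* passed without it (1.41, adjusted p = 0.00804, limma) and without both libraries of mouse C (1.31, adjusted p = 0.0321, limma), where the alternatives together ranged from adjusted p = 0.00804 to 0.562. Whether transcripts of the transgene were counted on *Atf3* was not tested.

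Frizzled proteins are cell surface receptors that span the membrane several times and bind lipid-modified Wnt ligands through a cysteine-rich domain outside the cell. Bound with the co-receptors Lrp5 or Lrp6 they stabilise β-catenin through Dishevelled, and with other partners, such as Ror2, Ptk7 or Vangl proteins, they steer cell polarity and movement. In the mammary gland, Wnt signals through these receptors are known to maintain basal stem cells and to guide ductal branching, and overactive Wnt signaling causes mammary tumors in mice.

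Expression is given as CPM, the fragments of a gene scaled to 1e6 on the effective library size of the authors. The number of fragments behind each value was recovered, and 4750989, 6127715 and 7372155 fragments fell on genes in the glands of mice A, B and C and 5116883, 7806908 and 6948233 in the tumors. The floor of detection used here, 3 fragments, came to 0.393 CPM in the deepest library and 0.610 CPM in the shallowest. Intervals and floors cover counting error only, and a molecule copied in PCR may have been counted more than once. The 3 glands differed in the tissue they held. Transcripts of skeletal muscle, 6 genes summed, reached 3745 CPM in gland A and 1481 CPM in gland B, against 4.24 CPM in gland C and at most 14.1 CPM in a tumor.

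Most Frizzled genes differed between tumor and gland, and they did so in both directions. Tumors and glands were compared with limma on log2(CPM + 0.5), and a gene was called when its log2 fold change was 1 or more in size with an adjusted p of 0.05 or less. On this scale the change of genes with low CPM is understated. Of the 9 Frizzled genes, 5 were called higher in the tumors, where 14.5% of all genes were, and 1 was called lower, where 13.7% of all genes were. In either direction 28.2% of all genes were called. *Fzd1*, *Fzd2*, *Fzd3*, *Fzd6* and *Fzd10* rose, *Fzd4* fell, and *Fzd5*, *Fzd7* and *Fzd8* did not pass. The median log2 fold change was 1.23 over the 9 Frizzled genes and -0.0028 over all genes. For 6 of the 9, the values of tumors and glands did not overlap, as was the case for 54.0% of all genes. These 6 are the called ones, and the 3 mice had the same sign of tumor minus gland in each. Because the table holds only genes with enough fragments over all libraries, *Fzd10*, with 122 of its 128 fragments in tumors, is listed through the tissue in which it is high. In bulk tissue, fewer cells of a type and less mRNA per cell cannot be told apart.

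**Figure D1:**
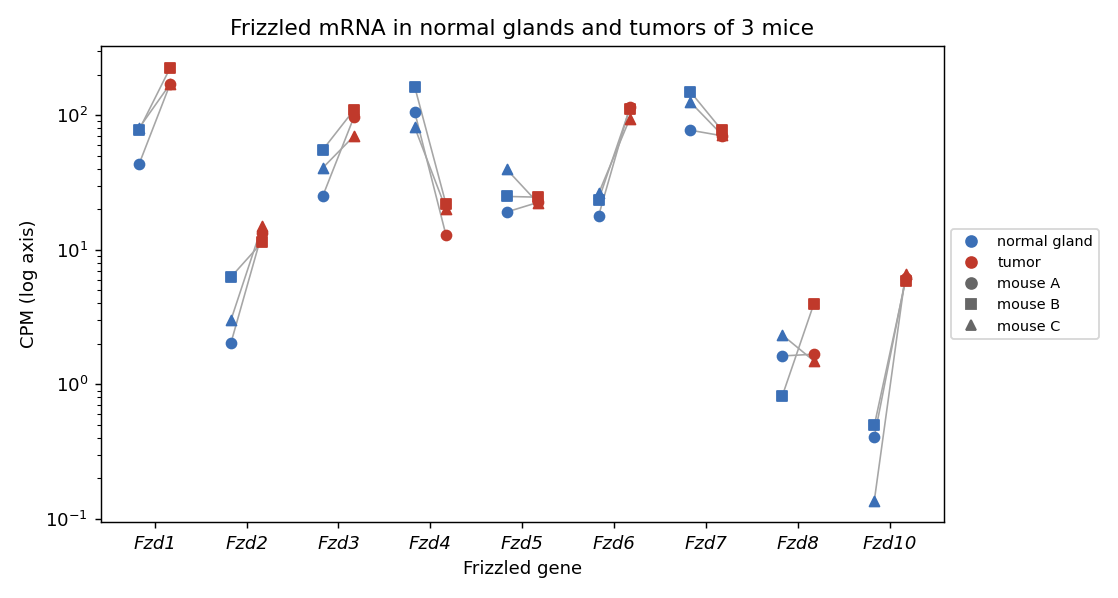
CPM on a log axis of the 9 Frizzled genes of the table in each library, with normal glands in blue, tumors in red, a symbol for each mouse and a line joining the 2 tissues of a mouse. *Fzd1*, *Fzd2*, *Fzd3*, *Fzd6* and *Fzd10* lie higher in all 3 tumors than in any gland, *Fzd4* lies lower, and the groups overlap for *Fzd5*, *Fzd7* and *Fzd8*.

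*Fzd1*, *Fzd2* and *Fzd7* encode a subgroup of close relatives, which couple to β-catenin in many tissues, and they did not move together. *Fzd1*, on chromosome 5 (4753842 to 4758216, minus strand, 1 exon, mm9), stood at 43.3, 77.8 and 80.3 CPM in the glands of mice A, B and C and at 172, 226 and 172 CPM in their tumors. The lowest tumor was above the highest gland, and gland A was the lowest of all. The mean was 67.1 ± 20.7 CPM (SD, n = 3) in the glands and 190 ± 31.5 CPM in the tumors, which gives a log2 fold change of 1.53 (SE 0.25, adjusted p = 0.00149, limma). *Fzd2*, on chromosome 11 (102465745 to 102469372, plus strand, 1 exon), was less abundant, at 2.03, 6.28 and 3.01 CPM in the glands and 13.4, 11.4 and 15.1 CPM in the tumors. Gland B was the highest gland and tumor B the lowest tumor, so that the log2 ratio of tumor to gland was 0.81 in this mouse, 2.46 in mouse A and 2.16 in mouse C. Its log2 fold change was 1.81 (SE 0.36, adjusted p = 0.00418, limma). These values rest on 10 to 38 fragments per gland and 72 to 101 per tumor.

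*Fzd7*, a receptor known from basal and stem cells of the mammary epithelium, lies on chromosome 1 (59538991 to 59543791, plus strand, 1 exon). It stood at 77.5, 149 and 125 CPM in the glands of mice A, B and C and at 70.5, 77.7 and 71.9 CPM in the tumors. The tumors lay close together, and the gland of mouse A lay within the range of the tumors, just under tumor B, so the groups overlapped. Tumor was below gland in all 3 mice, with a log2 fold change of -0.62 (SE 0.23, 95% interval -1.15 to -0.09), which did not pass (adjusted p = 0.0605, limma). In the fit with the mouse as a block the adjusted p was 0.037 (limma), still below the fold needed for a call. Without gland A the log2 fold change was -0.89 (adjusted p = 0.00364, limma), and the alternatives together, from limma, edgeR and DESeq2, gave an adjusted p between 0.00364 and 0.274. Within each library, log2 of *Fzd1* minus log2 of *Fzd7* was -0.83, -0.94 and -0.64 in the glands and 1.28, 1.54 and 1.25 in the tumors. Transcript lengths cancel in the change of such a difference, which was 2.16 between the group means, and the 2 groups did not overlap.

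*Fzd3* and *Fzd6* encode the pair of vertebrate Frizzleds best known for planar cell polarity, *Fzd3* in the guidance of axons and *Fzd6* in the orientation of hair follicles. *Fzd6*, on chromosome 15 (38837879 to 38869732, plus strand, 7 exons), stood at 17.9, 23.5 and 26.3 CPM in the glands of mice A, B and C and at 115, 112 and 94.6 CPM in the tumors. Each tissue varied little, and the groups lay far apart. The mean was 22.5 ± 4.26 CPM (SD, n = 3) in the glands and 107 ± 11.1 CPM in the tumors, a ratio of 4.76 and a log2 fold change of 2.24 (SE 0.19, adjusted p = 3.91e-05, limma). *Fzd3*, on chromosome 14 (65819863 to 65881300, minus strand, 7 exons), stood at 25.2, 55.5 and 40.8 CPM in the glands and at 97.7, 110 and 70.3 CPM in the tumors. All tumors were above all glands, by the least in mouse C, where the log2 ratio was 0.78, and by the most in mouse A, where it was 1.93. The log2 fold change of *Fzd3* was 1.23 (SE 0.29, adjusted p = 0.00968, limma). Its call rests on gland A. Without this gland the log2 fold change was 0.93, and without both libraries of mouse A it was 0.88, under the fold of 2 (adjusted p = 0.0173 and 0.0481, limma, with a range of 0.000887 to 0.0490 over all alternatives).

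*Fzd4*, the receptor of Norrin in retinal vessels, was the Frizzled gene that fell. It lies on chromosome 7 (96552876 to 96558620, plus strand, 2 exons) and stood at 105, 162 and 81.3 CPM in the glands of mice A, B and C and at 12.8, 21.9 and 20.1 CPM in the tumors. The highest tumor was well below the lowest gland, and in both tissues the levels of single mice differed by less than the tissues did. The mean was 116 ± 41.7 CPM (SD, n = 3) in the glands and 18.3 ± 4.79 CPM in the tumors, so the glands held 6.37 times the level of the tumors (log2 fold change -2.61, SE 0.29, adjusted p = 0.000181, limma). The gland with the most *Fzd4* was also the one with the most transcripts of adipocytes, of which the 12 genes listed summed to 5518, 7097 and 3672 CPM in the glands of mice A, B and C and to 178, 230 and 172 CPM in the tumors. All 12 fell, where 13.7% of all genes did, with *Fabp4* the most abundant and none at 0 in any library. *Plin1*, *Lep* and *Retn*, 3 of the 12, are in the table through the glands. The endothelial list, with 3 of its 12 genes down (25%) and 0 up, and 1 down without gland B, tumor A or mouse B, summed to 432, 555 and 411 CPM in the glands and to 242, 291 and 338 CPM in the tumors. Its most abundant gene was *Pecam1*, and none was at 0. The part of either tissue component in the difference of *Fzd4* was not tested.

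Single genes of the marker lists, chosen after their values were seen, were set beside *Fzd4* and *Fzd6* as differences of log2(CPM + 0.5). Within a library, log2 of *Fzd4* minus log2 of *Adipoq*, the adiponectin gene, was -1.74, -1.85 and -1.87 in the glands of mice A, B and C and 1.66, 2.29 and 3.73 in the tumors. The means differed by 4.38. On this scale *Adipoq* has the largest fall of the 12 adipocyte genes, at -7.00, and *Lipe* the smallest, at -3.23, against -2.61 for *Fzd4*. By the ratio of gland to tumor means, *Lep* (204) and *Plin1* (176) lie above *Adipoq* (140). The same difference with *Cdh5*, which encodes the cadherin of endothelial junctions, was 1.0, 1.03 and 0.49 in the glands and -1.74, -1.33 and -1.89 in the tumors. The means differed by -2.49. With *Kdr*, an endothelial receptor of VEGF, the difference was 0.52, 0.32 and -0.14 in the glands and -1.67, -1.38 and -1.08 in the tumors, and the means differed by -1.61. *Cdh5* stood at 52.5, 79.3 and 57.6 CPM in the glands and 44.1, 55.7 and 75.8 CPM in the tumors, the smallest difference of the 12 endothelial genes, of which 11 were lower and 1 was higher. The largest fall of the 12 was that of *Tek*, with a log2 fold change of -1.35, against -2.61 for *Fzd4*. For *Fzd6* and the epithelial cadherin gene *Cdh1*, the difference was -1.57, -1.42 and -2.11 in the glands and -1.44, -1.71 and -2.22 in the tumors. Here the groups overlapped, and the means differed by -0.09, where *Cdh1* stood at 54.1, 63.6 and 115 CPM in the glands and 313, 367 and 442 CPM in the tumors. The log2 fold change of *Cdh1*, 2.33, is near that of *Fzd6*, and those of the other genes of this epithelial list ran from 0.10 for *Cldn3*, which was not called, to 3.99 for *Cldn4*. With the basal keratin gene *Krt5* the difference was 0.81, -0.23 and -0.45 in the glands and -2.98, -3.13 and -3.47 in the tumors, without overlap and with means that differed by -3.24. The log2 fold changes of the basal list ran from 1.53 for *Dsc3*, which was not called, to 7.48 for *Dsg3*, with 5.48 for *Krt5*. *Dsc3* and *Itga6* (1.61) lay below the 2.24 of *Fzd6*, and the other genes of the list lay above it.

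*Fzd10*, a close relative of *Fzd9*, was close to the limit of detection in the glands. It lies on chromosome 5 (129106719 to 129109968, plus strand, 1 exon), where GENCODE also annotates an overlapping pseudogene model of the same symbol. In the glands of mice A, B and C it had 2, 3 and 1 fragments (0.407, 0.496 and 0.137 CPM), and in the tumors 33, 45 and 44 fragments (6.14, 5.90 and 6.59 CPM). Every gland was at or under the floor of 3 fragments, and the tumors lay close together. Over the pooled libraries the rate was 18.9 times as high in the tumors (exact 95% counting interval 8.43 to 52.5). The log2 fold change was 3.01 (SE 0.31, adjusted p = 0.00012, limma), a value that depends on the number added to low counts and ran from 2.43 with a pseudocount of 1 to 4.23 with DESeq2.

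*Fzd5*, which acts in Paneth cells of the intestine, and its close relative *Fzd8* did not pass the test. *Fzd5*, on chromosome 1, stood at 19.1, 24.9 and 39.7 CPM in the glands of mice A, B and C and at 22.5, 24.6 and 22.3 CPM in the tumors. The tumors fell inside the range of the glands, and gland C was the highest library. The log2 fold change was -0.20 (95% interval -0.79 to 0.39, adjusted p = 0.568, limma), and 0.08 without gland C. *Fzd8*, on chromosome 18, stood at 1.63, 0.826 and 2.33 CPM in the glands and at 1.67, 3.93 and 1.50 CPM in the tumors, from 5 to 30 fragments per library. The highest value was that of tumor B and the lowest that of the gland of the same mouse. The log2 fold change was 0.42 (95% interval -0.56 to 1.41, adjusted p = 0.46, limma), and -0.23 without both libraries of mouse B. Intervals of this width do not show that the levels were alike.

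Levels of different genes were compared as CPM per kb of the longest annotated transcript, as a description with no test. In the glands, *Fzd4* led with 31.6 ± 11.3 CPM per kb (SD, n = 3), followed by *Fzd7* (24.4 ± 7.61), *Fzd1* (15.3 ± 4.73), *Fzd3* (9.74 ± 3.64), *Fzd6* (5.52 ± 1.04), *Fzd5* (4.04 ± 1.53), *Fzd2* (1.04 ± 0.613), *Fzd8* (0.476 ± 0.224) and *Fzd10* (0.107 ± 0.0575). Neighbours in this order overlapped between libraries, except *Fzd5* with *Fzd2* and *Fzd8* with *Fzd10*. *Fzd4* was above *Fzd7* in 2 of 3 glands. In the tumors, *Fzd1* led with 43.4 ± 7.20 CPM per kb, followed by *Fzd6* (26.3 ± 2.73), *Fzd3* (22.3 ± 4.89), *Fzd7* (15.3 ± 0.794), *Fzd4* (4.96 ± 1.3), *Fzd2* (3.67 ± 0.515), *Fzd5* (3.35 ± 0.186), *Fzd10* (1.91 ± 0.109) and *Fzd8* (0.708 ± 0.406). There, *Fzd1* stood clear of *Fzd6*, *Fzd3* of *Fzd7*, *Fzd7* of *Fzd4*, *Fzd5* of *Fzd10* and *Fzd10* of *Fzd8*, whereas *Fzd6* overlapped with *Fzd3* and the group of *Fzd4*, *Fzd2* and *Fzd5* overlapped among themselves. With the coding length in place of the transcript, *Fzd5* moved above *Fzd6* in the glands and above *Fzd4* in the tumors, and *Fzd3* overlapped with *Fzd7* in the tumors. In the glands, *Fzd7* then stood clear of *Fzd1*, and *Fzd2* of *Fzd8*.

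Summed over the 9 genes, the level was 69.0, 118 and 90.0 CPM per kb in the glands of mice A, B and C and 119, 137 and 110 CPM per kb in the tumors. The gland of mouse B lay among the tumors, so the groups overlapped, although the tumor was higher in each mouse, by 1.72, 1.17 and 1.22 times. Of this sum, *Fzd4* made up 41.4%, 37.4% and 24.5% in the glands and 2.94%, 4.32% and 4.97% in the tumors. The share of *Fzd7* was 23.4%, 26.4% and 28.9% in the glands and 12.4%, 11.8% and 13.7% in the tumors. Together *Fzd4* and *Fzd7* took 60.7% ± 6.30 (SD, n = 3) in the glands and 16.7% ± 1.73 in the tumors. *Fzd1*, *Fzd3* and *Fzd6* took 33.1% ± 4.73 and 75.3% ± 2.58. The 2 pairs of shares did not overlap between tissues, and a share falls where other members of the sum rise. These groups were put together with the values of these libraries known, so their separation is a description and no test. Gland C held the smallest share of *Fzd4* and the largest of *Fzd1*, *Fzd5*, *Fzd6* and *Fzd7* among the glands.

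**Figure D2:**
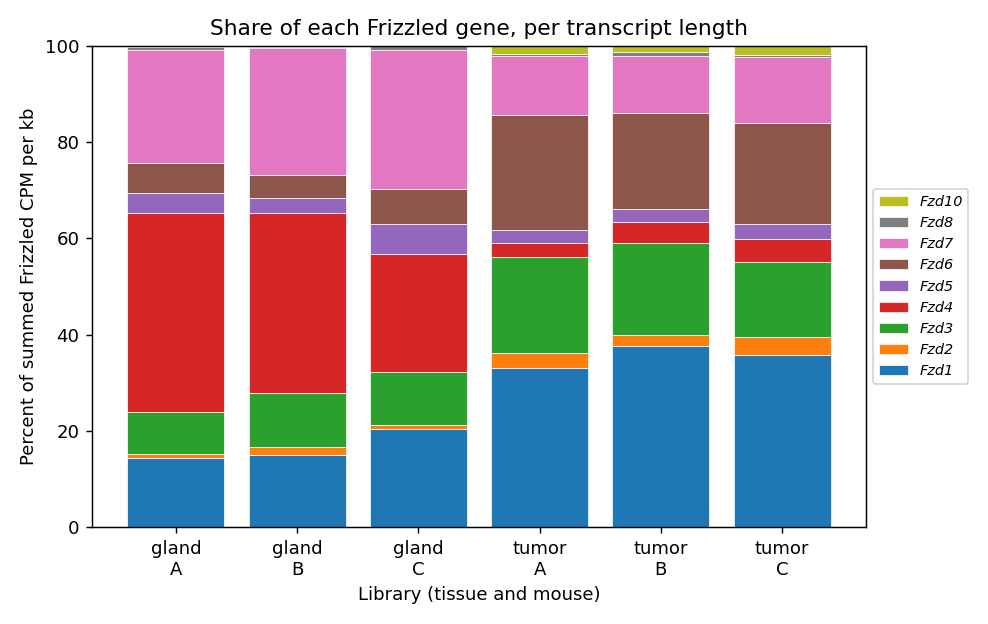
Stacked bars give, for each library, the percent that each of the 9 Frizzled genes takes of their summed CPM per kb of transcript (vertical axis), with the 3 normal glands on the left and the 3 tumors on the right. *Fzd4* takes 24.5% to 41.4% in the glands and 2.94% to 4.97% in the tumors, and *Fzd1* takes 14.3% to 20.4% and 33.2% to 37.6%.

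Co-receptors and relatives of the Frizzleds, 11 genes listed, were found for all but *Musk*. Of the 10 in the table, 3 rose (30%, against 14.5% of all genes) and 1 fell (10%, against 13.7%), with a median log2 fold change of 0.48. *Ptk7*, a pseudokinase receptor of planar cell polarity, stood at 3.05, 1.82 and 2.87 CPM in the glands of mice A, B and C and at 23.4, 21.6 and 29.7 CPM in the tumors (log2 fold change 3.06, SE 0.25, adjusted p = 3.82e-05, limma). *Ror2*, a receptor of Wnt5a, stood at 0.610, 0.826 and 1.50 CPM in the glands and at 7.07, 6.68 and 4.05 CPM in the tumors (log2 fold change 2.13, SE 0.35, adjusted p = 0.00154, limma). For both genes the groups lay apart, and *Ror2* was lowest in tumor C. *Ryk*, another Wnt receptor, rose from 32.0 ± 4.79 to 64.9 ± 4.64 CPM (SD, n = 3; log2 fold change 1.02, adjusted p = 0.00146, limma) and went under the fold of 2 without gland A, gland C or tumor C, with 0.96 in each case, and with 0.90 without both libraries of mouse C, which left 2 rises in each case.

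*Tspan12*, a tetraspanin that acts with *Fzd4* in Norrin signaling, fell with it. It stood at 132, 202 and 90.6 CPM in the glands of mice A, B and C and at 35.4, 55.6 and 28.3 CPM in the tumors, which gives a log2 fold change of -1.80 (SE 0.33, adjusted p = 0.00263, limma). The order of the glands was that of *Fzd4*, with gland B highest and gland C lowest, and no tumor reached a gland. The summed adipocyte genes had this order of glands too. Among the tumors the orders differed, with *Fzd4* lowest in tumor A and *Tspan12* lowest in tumor C. On log2(CPM + 0.5), *Fzd4* minus *Tspan12* was -0.33, -0.32 and -0.16 in the glands and -1.43, -1.32 and -0.49 in the tumors. The means differed by -0.81, without overlap. The expression of *Ndp*, the gene of Norrin itself, was not analysed here. Of the Lrp co-receptors, *Lrp6* stood at 252, 340 and 276 CPM in the glands and 231, 246 and 244 CPM in the tumors and did not pass (log2 fold change -0.26, 95% interval -0.59 to 0.08, adjusted p = 0.196, limma). *Lrp5* was at 14.9 ± 1.33 CPM in the glands and 21.4 ± 0.415 CPM in the tumors, and *Smo*, the Frizzled-like transducer of Hedgehog signals, at 22.9 ± 2.26 and 43.2 ± 5.12 CPM (SD, n = 3). These 2 genes had adjusted p = 0.0414 and 0.00336 (limma) but log2 fold changes of 0.51 and 0.90, below the fold needed, and *Smo* reached 1.02 without both libraries of mouse B. *Ror1*, *Gpr124* and *Reck* did not pass, at 0.17, 0.44 and -0.61 on the log2 scale (adjusted p = 0.677, 0.28 and 0.16, limma).

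**Figure D3:**
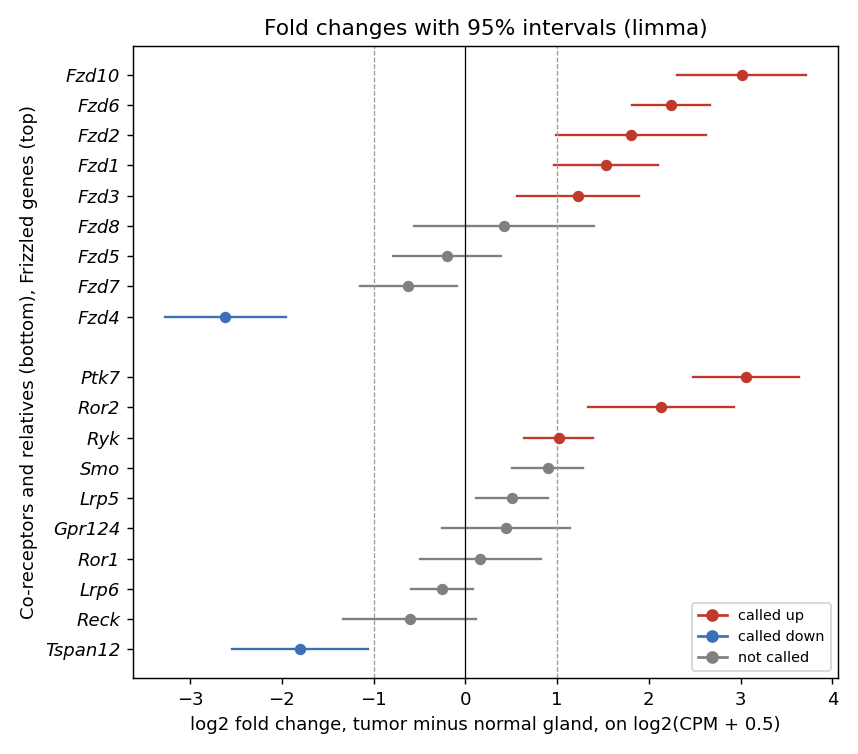
Points give the log2 fold change of tumor against normal gland on log2(CPM + 0.5) for the 9 Frizzled genes (top) and the 10 co-receptors and relatives (bottom), with bars for the 95% interval from limma (n = 3 per tissue), dashed lines at -1 and 1, and color for the call. *Fzd4* and *Tspan12* are the genes called lower, at -2.61 and -1.80, and *Ptk7* and *Fzd10* have the largest values, 3.06 and 3.01.

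Ligands of the Frizzleds were represented by 13 of 20 listed genes, of which 9 rose (69.2%, against 14.5% of all genes) and 1 fell (7.69%, against 13.7%; median log2 fold change 2.46, the same with *Wnt7a* at its bound). Of the 9, 7 had fewer than 10 fragments over the glands (*Wnt3*, *Wnt6*, *Wnt7a*, *Wnt7b*, *Wnt10a*, *Wnt10b* and *Wnt16*) and are in the table through the tumors, so the count and median say nothing of ligands in general. *Wnt6* had 5 fragments over the 3 glands and 429 over the tumors, 79.7 times the rate (exact 95% counting interval 33.9 to 247), and stood at 21.0, 15.3 and 29.8 CPM in the tumors of mice A, B and C. *Wnt7a* was listed at 0 in all 3 glands and stood at 4.09, 5.37 and 5.39 CPM in the tumors, at least 30.7-fold higher against a floor of 3 fragments over the group, and at least 18.4-fold without gland C, an alternative chosen after the data were seen. *Wnt10b* rose from 0.203, 1.32 and 0 CPM in the glands to 7.26, 8.39 and 6.14 CPM in the tumors (log2 fold change 3.16, adjusted p = 0.000962, limma). The ligand most abundant over all libraries was *Wnt5a*, which was also called higher. It rose from 22.8, 35.5 and 19.6 CPM in the glands to 258, 238 and 182 CPM in the tumors (log2 fold change 3.13, adjusted p = 2.64e-05, limma). *Wnt5b* fell from 5.49, 7.43 and 9.03 CPM to 3.54, 2.36 and 1.05 CPM (log2 fold change -1.55, adjusted p = 0.0117, limma). It was no longer called without both libraries of mouse B or of mouse C (log2 fold change -1.60 and -1.02, adjusted p = 0.0914 and 0.0772, limma, the range over its alternatives being 0.00375 to 0.0914), so that 0 ligands were called lower.

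Genes that set how much Frizzled protein stays on the surface moved in both directions. Rnf43 and Znrf3 are ubiquitin ligases that remove Frizzleds, R-spondins and their Lgr receptors counteract them, and Shisa proteins hold Frizzleds inside the cell. Of 10 of 11 listed genes in the table, 5 rose (50%, against 14.5% of all genes) and 3 fell (30%, against 13.7%), with a median log2 fold change of 1.67. *Rspo1* and *Shisa3* are in the table through the glands and *Rspo4* through the tumors. *Lgr5* stood at 2.64, 1.65 and 1.37 CPM in the glands of mice A, B and C and at 18.8, 18.9 and 16.2 CPM in the tumors, and *Lgr6* at 3.86, 4.79 and 1.50 and at 32.4, 24.2 and 8.99 CPM. *Znrf3* stood at 25.0, 25.6 and 27.4 CPM in the glands and at 174, 146 and 92.3 CPM in the tumors. In all 3 genes the groups lay apart and tumor C was the lowest tumor (log2 fold changes 2.98, 2.46 and 2.33, adjusted p = 5.37e-05, 0.0052 and 9.87e-05, limma). *Shisa3* fell from 5.69, 4.62 and 5.06 CPM to 0.186, 0 and 0.899 CPM, and *Shisa2* from 9.15, 9.25 and 9.44 CPM to 4.84, 3.01 and 1.50 CPM (log2 fold changes -2.84 and -1.55, adjusted p = 0.000863 and 0.00832, limma). Exons of *Shisa3* overlap those of *Atp8a1*, and fragments of that stretch cannot be assigned with certainty. *Rspo1* had 4, 15 and 40 fragments in the glands (0.813, 2.48 and 5.47 CPM) and 1, 0 and 2 in the tumors. Gland C was the highest. Pooled, the rate was 21.2 times as high in the glands (exact 95% counting interval 6.90 to 106). It was 11.4 times without gland C, 13.0 times without tumor B and 42.0 times without tumor C, alternatives chosen after the data were seen. *Rspo1* (log2 fold change -2.14, adjusted p = 0.0147, limma) lost its call without tumor B, without mouse B and without mouse C. Its log2 fold changes there were -1.95, -1.92 and -1.76 (adjusted p = 0.0563, 0.132 and 0.0613, limma). *Shisa2* lost its call without mouse B, with -1.58 (adjusted p = 0.0769, limma). Over all alternatives the adjusted p ran from 0.00152 to 0.132 for *Rspo1* and from 0.00182 to 0.0769 for *Shisa2*, so that 1 of the 3 falls was called without mouse B.

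Wnt antagonists, most of them secreted proteins that bind Wnt proteins, Frizzleds or Lrp co-receptors, were in the table for 12 of 16 listed genes. The list also holds *Kremen1* and *Kremen2*, whose proteins are not secreted, and the enzyme gene *Notum*, and each of these was called higher. Of the 12 genes, 9 rose (75%, against 14.5% of all genes) and 0 fell (against 13.7%) with limma, edgeR or DESeq2. At an unadjusted p under 0.05 there were 10 higher and 0 lower (median log2 fold change 2.41). *Notum* is in the table through the tumors. *Dkk1*, which blocks Lrp5 and Lrp6, stood at 0.813, 0.165 and 0.684 CPM in the glands of mice A, B and C and at 76.7, 145 and 138 CPM in the tumors. *Dkk2* stood at 2.85, 8.09 and 5.47 CPM and at 204, 275 and 170 CPM, and *Wif1*, which binds Wnt proteins, at 1.63, 1.49 and 3.01 CPM and at 54.7, 42.7 and 15.1 CPM. No gland came near a tumor in *Dkk1* or *Dkk2*, and *Wif1* was lowest in tumor C. The log2 fold changes were 6.84, 5.26 and 3.77 (adjusted p = 3.42e-06, 1.11e-05 and 0.000323, limma).

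Of the 15 genes of the Dishevelled and β-catenin relay, 3 rose (20%, against 14.5% of all genes) and 2 fell (13.3%, against 13.7%), with a median log2 fold change of 0.19. These shares are near those of all genes. *Ctnnb1*, the gene of β-catenin, whose exons overlap those of *Ulk4*, rose from 421, 712 and 696 CPM in the glands of mice A, B and C to 2137, 2647 and 1776 CPM in the tumors (log2 fold change 1.86, adjusted p = 0.000368, limma). *Csnk1e* and *Csnk1a1*, kinases of this relay, rose by 1.3 and 1.02 on the log2 scale (adjusted p = 0.000686 and 0.000363, limma), *Csnk1a1* going to 0.97 without gland A, 0.96 without tumor B, 0.97 without mouse A and 0.98 without mouse B. The transcription factor genes *Tcf7* and *Tcf7l2* fell (log2 fold change -1.34 and -1.02, adjusted p = 0.0221 and 0.00144, limma). *Tcf7* lost its call without gland A, with -0.92, without tumor A, with -1.34, without tumor C, with -1.10, and without mouse A or C, with -0.92 and -1.18 (adjusted p from 0.00146 to 0.101 over all alternatives, limma, edgeR or DESeq2). *Tcf7l2* went to -0.99 without gland B, -1.0 without gland C, -0.90 without tumor C and -0.88 without mouse C. The falls of the relay numbered 0 without tumor C or mouse C, and 1 without gland B, gland C or tumor A.

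Among planar cell polarity genes, the Frizzled branch that orients cells in a sheet, 14 of 15 listed genes were in the table, 3 rose (21.4%, against 14.5% of all genes) and 1 fell (7.14%, against 13.7%), with a median log2 fold change of 0.65. In both directions together this is near the 28.2% of all genes. *Celsr1*, an atypical cadherin, stood at 6.91, 3.30 and 4.24 CPM in the glands of mice A, B and C and at 31.4, 29.5 and 35.2 CPM in the tumors, and *Vangl2*, a core polarity protein, at 1.42, 0.991 and 2.05 CPM and at 9.12, 11.4 and 7.94 CPM (log2 fold changes 2.67 and 2.35, adjusted p = 0.000108 and 0.000367, limma). Both lay apart between tissues, as did *Prickle1* with 10.8 ± 1.91 and 22.6 ± 2.70 CPM (SD, n = 3; log2 fold change 1.04, adjusted p = 0.00404, limma). *Prickle1* went under the fold of 2 without gland C, tumor B or mouse C, with 0.91, 0.95 and 0.96. *Daam2*, which links Dishevelled to actin, fell (log2 fold change -1.24, adjusted p = 0.0245, limma). It was no longer called without gland B, gland C, tumor B, mouse B or mouse C. The log2 fold changes of these fits were -1.14, -1.17, -0.84, -0.75 and -1.34 (adjusted p = 0.0721, 0.0602, 0.0662, 0.156 and 0.0730, limma, where 0.156 was the largest of all alternatives and 0.0160 the smallest). The polarity genes called lower then numbered 0, and 2 without tumor A.

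Genes that β-catenin is known to induce as feedback were the list with the largest share of calls among the pathway lists. Of 12, all in the table, 10 rose (83.3%, against 14.5% of all genes) and 1, *Tcf7*, fell (8.33%, against 13.7%), with a median log2 fold change of 2.52. *Lef1* did not pass, and the fall of *Tcf7* was lost without the libraries named above, which left 0 falls. Of the 10 rises, 2 are of genes in the table through the tumors, *Sp5* and *Notum*. This list shares *Lgr5*, *Rnf43*, *Znrf3*, *Notum*, *Tcf7* and *Lef1* with the lists above. *Tnfrsf19* stood at 7.73, 3.80 and 3.56 CPM in the glands of mice A, B and C and at 128, 98.4 and 52.3 CPM in the tumors, *Nkd2*, an inhibitor of Dishevelled, at 7.73, 7.43 and 9.30 CPM and at 109, 127 and 83.6 CPM, and *Apcdd1*, a membrane inhibitor of Wnt signals, at 4.88, 6.77 and 3.28 CPM and at 50.8, 57.3 and 57.5 CPM. The groups lay apart in all 3 genes (log2 fold changes 4.06, 3.61 and 3.39, adjusted p = 7.18e-05, 5.92e-06 and 2.29e-05, limma).

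Markers of several cell types that the 2 tissues could hold are given beside the shares of all genes called, 14.5% higher, 13.7% lower and 28.2% in either direction, and their part in the results above was not tested. Of 10 basal epithelial genes, 9 rose and 0 fell. The list summed to 283, 338 and 387 CPM in the glands of mice A, B and C and to 3025, 3615 and 3341 CPM in the tumors. By mean CPM, *Itga6* was the most abundant in the glands and *Krt5* in the tumors, and *Krt15* was at 0 in gland B. Of 9 genes of epithelium of any kind, 6 rose and 0 fell, with sums of 208, 259 and 458 CPM and of 793, 950 and 1055 CPM. By mean, *Epcam* was the most abundant in the glands and *Cdh1* in the tumors. Of 10 luminal genes, 4 rose and 6 fell, with sums of 450, 639 and 784 CPM and of 332, 240 and 326 CPM. By mean, *Prlr* was the most abundant in the glands and *Krt18* in the tumors. The luminal counts were 2 up without tumor C and 1 up and 3 down without mouse B. Of 10 fibroblast genes, 5 rose and 0 fell, with sums of 1234, 4231 and 2332 CPM and of 12335, 13762 and 14062 CPM. By mean, *Dcn* was the most abundant in the glands and *Postn* in the tumors. For the basal, epithelial and fibroblast lists, edgeR and DESeq2 also called 0 lower, and 0 genes were lower at an unadjusted p under 0.05.

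All 6 T cell genes fell, where 13.7% of all genes did. *Mpo* of the neutrophil list and *Ckm* and *Actn3* of the muscle list are in the table through the glands. The T cell list summed to 426, 168 and 317 CPM in the glands of mice A, B and C and to 25.3, 27.8 and 44.1 CPM in the tumors (most abundant *Cd4*). Of 7 neutrophil genes, 4 rose and 2 fell, with sums of 187, 80.3 and 119 CPM and of 820, 1040 and 1410 CPM (most abundant *S100a9*, with *Mpo* at 0 in tumor B). Only 1 neutrophil fall was called without gland A, tumor B, tumor C or mouse B. None of 7 macrophage genes was called by limma, edgeR or DESeq2, with 1 higher and 0 lower at an unadjusted p under 0.05 and 1 called without tumor A, and their sums were 1049, 1935 and 3776 CPM and 1112, 2335 and 2243 CPM (most abundant *Lyz2*). Of 8 genes of smooth muscle and pericytes, 2 fell and 0 rose with limma, edgeR or DESeq2, with 1 higher and 2 lower at an unadjusted p under 0.05. The sums were 367, 553 and 602 CPM and 234, 306 and 308 CPM (most abundant by mean *Myh11* in the glands and *Acta2* in the tumors, with *Myocd* at 0 in gland A). The smooth muscle falls numbered 1 without tumor A, tumor B, mouse A or mouse B, and 1 gene rose without gland C or mouse C. The endothelial falls, *Tek*, *Kdr* and *Vwf*, numbered 1 without gland B, tumor A or mouse B, when *Kdr* went from -1.0 to -0.78, -0.92 and -0.92 and *Vwf* from -1.07 to -0.99, -0.88 and -0.81. *Kdr* was also lost without tumor C or mouse C, at -0.94 and -0.98, and *Vwf* without tumor B or mouse A, at -0.88 and -0.91. For this list limma called 0 genes higher, and edgeR and DESeq2 each called 2 falls and 0 rises, with 0 higher and 6 lower at an unadjusted p under 0.05. Of 6 skeletal muscle genes, 1 fell in the main comparison, 2 with the mouse as a block and 6 with edgeR or DESeq2. Without gland C or mouse C 6 fell, and 0 fell with no trend or without gland A, gland B, mouse A, mouse B or any 1 tumor. By mean, *Myh4* was the most abundant in the glands and *Tnnt3* in the tumors. *Acta1*, *Ckm*, *Myh4* and *Actn3* were at 0 in at least 1 library.

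For each called Frizzled gene, the 3 closest profiles over the 6 libraries were found among the 9339 genes that average 10 CPM or more, as the root mean square difference of median-centered log2(CPM + 0.5). Nearest to *Fzd1* were *Tmtc3* (0.11), *Ctsc* (0.13) and *Dstn* (0.15), to *Fzd2* *Ces2g* (0.12), *Emilin2* (0.14) and *Rcn3* (0.20), and to *Fzd3* *Kdelc1* (0.15), *Tmeff1* (0.16) and *Cnpy4* (0.17). Nearest to *Fzd6* were *Mark1* (0.12), *Rbbp8* (0.14) and *Ero1l* (0.14), and to *Fzd10* *Col6a3* (0.16), *Spon1* (0.21) and *Prom2* (0.23). The profile of *Fzd10* depends on the 0.5 added, because its glands lie at or under the floor of 3 fragments. *Fzd4* lay nearest to *Agpat9* (0.13), which encodes an acyltransferase of triglyceride synthesis and stood at 72.4, 89.0 and 49.5 CPM in the glands of mice A, B and C and at 8.0, 12.2 and 10.5 CPM in the tumors. *Orm1* (0.15) and *1810020D17Rik* (0.18) followed. The log2 fold changes of these 3 genes were -2.70, -2.62 and -2.79, against -2.61 for *Fzd4*. Closeness in this measure depends largely on the difference between the tissues, and how small such distances usually are was not tested.

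The coding sequences of *Fzd1* and *Fzd2* were 81.5% identical, those of *Fzd2* and *Fzd7* 78.6%, those of *Fzd1* and *Fzd7* 77.9%, those of *Fzd5* and *Fzd8* 76.7%, those of *Fzd9* and *Fzd10* 72.9%, and those of *Fzd3* and *Fzd6* 66.6%. No exon of a Frizzled gene of the table overlapped an exon of another gene of the table. The longest runs shared without a mismatch are shown for how alike *Fzd1*, *Fzd2* and *Fzd7* are over their most similar stretch, and the reads of the study were longer than each run. *Fzd1* and *Fzd2* share 47 bases in the coding sequence, at chr5:4756331-4756377 (minus strand) and chr11:102467054-102467100 (plus strand). *Fzd1* and *Fzd7* share 47 bases at chr5:4756964-4757010 (minus strand) and chr1:59540188-59540234 (plus strand), and *Fzd2* and *Fzd7* share 38 bases at chr11:102467378-102467415 and chr1:59541142-59541179 (both plus strand, all mm9).
Fzd1 and Fzd2: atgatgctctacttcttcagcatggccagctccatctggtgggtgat
Fzd1 and Fzd7: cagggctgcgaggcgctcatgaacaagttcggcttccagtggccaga
Fzd2 and Fzd7: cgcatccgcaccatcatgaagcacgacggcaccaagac

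Promoter sequences of RefSeq, on the build GRCm38.p6, were matched for 6 of the 10 genes (*Fzd1*, *Fzd4*, *Fzd5*, *Fzd7*, *Fzd9* and *Fzd10*). In the 250 bases before the start, on both strands, a match to the AP-1 motif TGANTCA, the CRE motif TGACGTCA, which ATF-family factors are known to bind, or the TCF/LEF motif CTTTGAT was found in 0 of these 6, where 6.75%, 1.55% and 3.21% of 32851 promoters held one. Letters absent from this window say nothing of the factor. The GC box GGGCGG was found in 5 of 6 promoters (32.7% of all), with 9 matches in *Fzd5*, 7 in *Fzd4*, 6 in *Fzd7*, 1 in *Fzd10*, 1 in *Fzd9* and 0 in *Fzd1*, where matches may overlap each other. CCAAT was found in 3 of 6 (33.8% of all). GC made up 51.2% of the bases before *Fzd1*, 65.2% before *Fzd7*, 72.8% before *Fzd4* and 76.4% before *Fzd10*, against a median of 52.4% over all promoters. The promoters of the gene that fell, of 2 that rose and of *Fzd7* are printed 5′ to 3′ with GC boxes of either strand in capitals. They lie at chr7:89404116-89404365 (*Fzd4*, plus strand), chr5:4758217-4758466 (*Fzd1*, minus strand), chr5:128600856-128601105 (*Fzd10*, plus strand) and chr1:59481897-59482146 (*Fzd7*, plus strand), all on GRCm38.p6.
Fzd4: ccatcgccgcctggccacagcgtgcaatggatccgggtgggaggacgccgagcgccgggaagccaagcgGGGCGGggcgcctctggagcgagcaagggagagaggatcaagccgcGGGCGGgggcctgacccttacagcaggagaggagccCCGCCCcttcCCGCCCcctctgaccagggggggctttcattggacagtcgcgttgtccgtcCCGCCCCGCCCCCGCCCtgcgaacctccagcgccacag
Fzd1: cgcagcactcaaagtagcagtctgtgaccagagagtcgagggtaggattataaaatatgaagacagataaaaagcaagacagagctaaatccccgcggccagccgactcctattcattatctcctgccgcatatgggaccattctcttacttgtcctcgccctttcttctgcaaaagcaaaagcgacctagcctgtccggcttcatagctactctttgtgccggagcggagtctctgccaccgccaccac
Fzd10: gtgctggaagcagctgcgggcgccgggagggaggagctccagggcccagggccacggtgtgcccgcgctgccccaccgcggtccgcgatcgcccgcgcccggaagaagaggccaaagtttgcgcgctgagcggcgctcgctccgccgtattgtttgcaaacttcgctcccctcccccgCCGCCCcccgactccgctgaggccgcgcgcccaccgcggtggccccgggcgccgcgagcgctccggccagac
Fzd7: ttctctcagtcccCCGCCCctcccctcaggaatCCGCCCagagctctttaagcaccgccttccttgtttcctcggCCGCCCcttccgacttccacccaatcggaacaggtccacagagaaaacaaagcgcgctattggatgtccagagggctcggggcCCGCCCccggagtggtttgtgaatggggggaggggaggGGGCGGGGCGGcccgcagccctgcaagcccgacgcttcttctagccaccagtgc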

How the data were processed

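RNA-Seq of 6 libraries (3 tumors and the 3 normal glands of the same mice) was analysed, each library assigned to its tissue from its label. By the account in the study, read pairs were mapped by the authors to mm9 with TopHat2 2.0.3 and counted per RefSeq gene with HTSeq 0.5.3p9, whose strand setting is not given in the sources used here. The authors removed genes with fewer than 10 fragments and deposited a normalized signal, the CPM on the effective library size of edgeR 3.6.1. The lowest total in the table was 11 fragments. Divided by the value of 1 fragment, 100% of the entries of each library came out whole (within 0.01), so fragments could be recovered. No per-sample column was left out.

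The comparison used limma 3.58.1 (R 4.3.3, mean-variance trend, two-sided) on the scale log2(CPM + 0.5), and Benjamini-Hochberg adjustment over 15280 genes. The fold and FDR thresholds are those of the study. The unit was recorded as signal because the columns do not sum to 1 total, and takes the test planned for CPM. With 3 against 3, the smallest exact permutation p of any gene is p = 0.1, so calls rest on the spread shared across genes. The same fit was tested on simulated data. With edgeR 4.0.16 and DESeq2 1.42.0 on the recovered fragments, 4462 and 4436 genes were called, against 4309. Both libraries of a mouse come from 1 animal, so mouse numbers pair the samples, and deviations from the group means correlated over genes with r = 0.107 (mouse A), 0.151 (B) and 0.0168 (C). The block by mouse is an alternative because the study's methods do not name one. No 2 libraries of a tissue were copies (lowest chi-square per degree of freedom 13.7).

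Counting intervals compare pooled fragments of a tissue (exact binomial, 95%). Lengths and positions came from GENCODE vM1 (mm9), identities from alignments with Biopython 1.88 and BLAST 2.17.0. The pathway and marker lists were compiled by hand, and members and lists were chosen with earlier results of these data known. Named genes are all Frizzled genes and co-receptors, up to 3 called genes with the largest rise and 3 with the largest fall of every other list, and the 3 nearest profiles of each called Frizzled gene. For the marker lists given here not all of these are named, and their most abundant genes, by mean CPM, and genes at 0 are. Alternatives were pseudocounts of 0.1 and 1, a mean of at least 1 CPM, the block, plain totals, no trend, edgeR, DESeq2, leaving out each library or mouse, and, for levels per length, exon union and coding length.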

Additional observations from a re-analysis of the deposited data

How the results depend on the processing

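Of 153 values of the 9 Frizzled genes over 17 alternatives, 148 kept their direction and their call, which takes fold and adjusted p together. The exceptions were the 2 losses of *Fzd3* given above and 3 changes of sign in genes that were not called. *Fzd7* stayed uncalled, although its adjusted p went under 0.05 with the mouse as a block and without gland A, as given above. The log2 fold change of *Fzd5*, -0.20, was 0.08 without gland C, 0.11 without mouse C and -0.44 without gland A. That of *Fzd8*, 0.42, was -0.23 without mouse B and 0.89 without mouse C, and that of *Ror1*, 0.17, was -0.0198 without mouse C and 0.31 without tumor A. Fewer samples entered each of these fits, and the cause was not tested otherwise. The largest adjusted p of a called Frizzled gene over all alternatives was 0.0490 (limma). With the mouse as a block, 4298 genes were called, 4194 of them shared with the 4309 of the fit without it, and the block changed no call of a Frizzled gene or co-receptor. Leaving out 1 library or 1 mouse gave between 3180 and 4374 called genes. Size factors of DESeq2 were 0.985 to 1.01 times those of the effective library sizes. The mean ratio of the summed Frizzled level per transcript length, tumor over gland, was 1.37 ± 0.304 (SD, n = 3), 1.37 with exon unions, 1.27 with coding lengths, and 1.19 to 1.47 without 1 mouse. In depth, *Fzd10* in glands (1 to 3 fragments) and *Fzd8* (5 to 30) limit what could be detected.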
